A study of Mus musculus with 6 samples.

Results

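The plasma carriers of hormones and vitamins examined here are the 8 genes Alb, Afp, Afm, Gc, Ttr, Rbp4, Serpina7 and Serpina6, which were chosen by gene symbol from the 23282 genes in the deposited table. The table holds 3′ read counts (QuantSeq, in which each transcript gives reads from its poly(A) end) for primary hepatocytes from the livers of C57BL6/N mice. The control group was 3 cultures without treatment, and the IL-1β group was 3 cultures that received recombinant IL-1β protein for 24 h; the labels give no dose and do not say whether the replicates came from separate animals. The p-values therefore measure the spread between these samples, which may be technical. The design text puts the number of samples at 2 in each group while naming 3, and all 3 are in the table.

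Lipid-soluble hormones and vitamins circulate bound to proteins that hepatocytes secrete. Albumin binds many of them loosely, while dedicated carriers bind 1 ligand tightly: vitamin D-binding protein (Gc), retinol-binding protein (Rbp4), thyroxine-binding globulin (Serpina7) and corticosteroid-binding globulin (Serpina6). Albumin, transthyretin and RBP4 are known as negative acute-phase proteins, whose plasma levels fall during inflammation, and IL-1β is a main inflammatory cytokine that acts on hepatocytes.

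The 8 genes did not respond as a block. IL-1β lowered Rbp4, Gc, Ttr and Alb, raised Afp and Serpina7, and left Afm and Serpina6 without a call. Of the 8, 4 were lower and 2 higher at an adjusted p below 0.05 (quasi-likelihood test of edgeR, p-values adjusted by Benjamini-Hochberg across all 11657 genes tested), whereas 6.44% of all genes tested were lower and 6.97% were higher. The groups did not overlap for 7 of the 8 genes, compared with 28.2% of all genes tested. The median log2 fold change of the 8 was -0.23, against -0.0018 over all genes tested, but the genes ranged from -0.95 for Rbp4 to 1.53 for Afp.

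**Figure D1:**
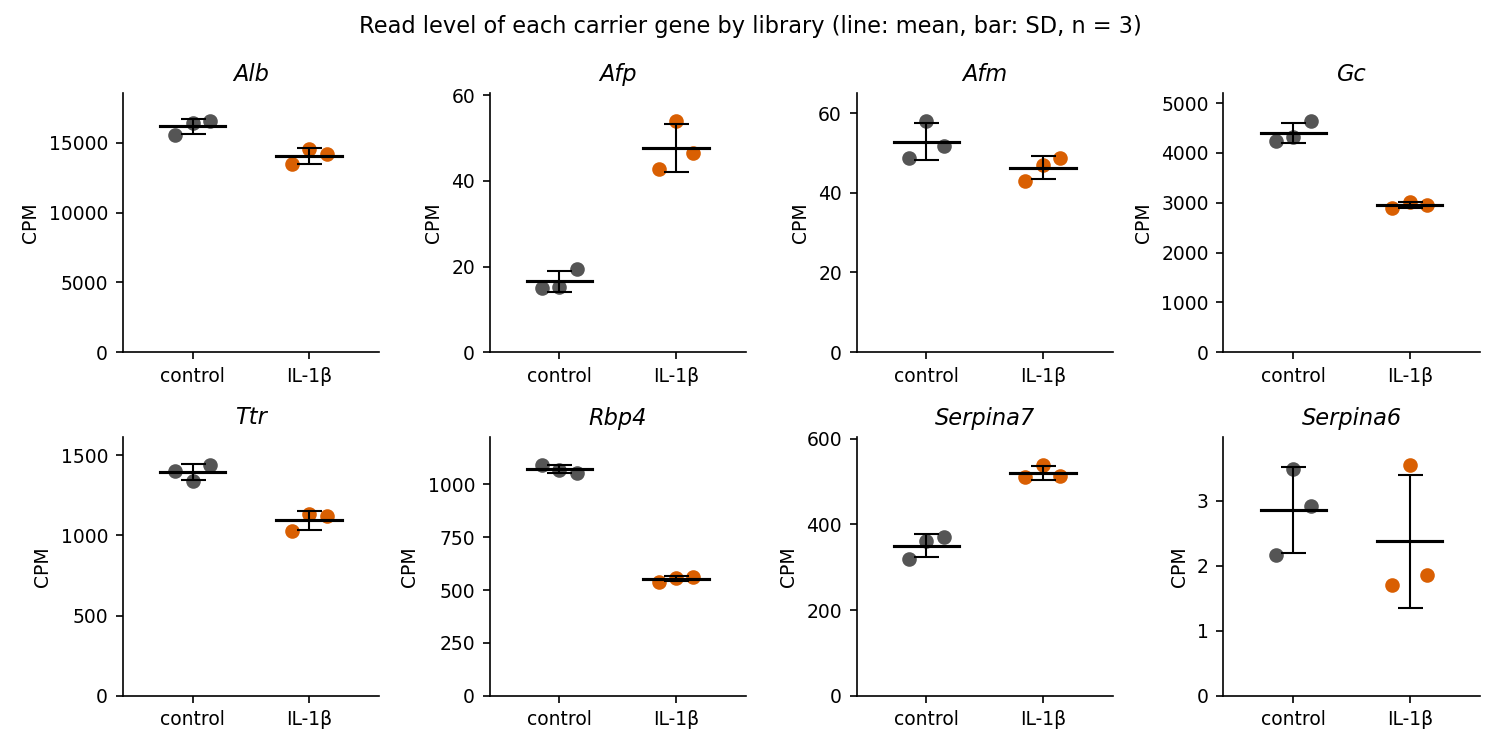
Read level (CPM, reads scaled to a common library total after TMM normalization, axis from 0) of each carrier gene in each of the 6 libraries, with the mean as a line and the SD as a bar (n = 3 per group). The IL-1β libraries lie below the controls for Alb, Gc, Ttr and Rbp4, above them for Afp and Serpina7, and overlap them for Serpina6; for Afm they lie below by less than the spread within either group.

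The libraries held 9538741 to 11105408 counts, of which 11.7 to 14.2% came from the ribosomal precursor row Rn45s. The labelled cell type was borne out by part of its markers. Alb was the most abundant row after Rn45s, and Apoa1 (1624 to 2948 CPM over the 6 libraries), Serpina1c (1249 to 1737 CPM), Apob (330.3 to 556 CPM) and the cytochrome P450 gene Cyp2e1 (133 to 169 CPM) were read in every library, whereas the urea-cycle gene Ass1 and the gluconeogenic genes G6pc and Pck1 were at or near 0 (none above 1.22 CPM in any library), and Cps1 stood at 1.78 to 3.22 CPM. Of 13 hepatocyte markers, 10 were tested, 6 were lower and 0 higher with IL-1β. Over all genes tested, 6.44% were lower and 6.97% higher. The summed level of the 13 markers was 4409 to 5374 CPM in the controls and 3655 to 3844 CPM with IL-1β. The part of this shift in the falls of the carriers was not tested. In bulk samples, fewer cells of a type and less RNA per cell cannot be told apart. None of 11 macrophage markers tested was called in either direction, and their summed level was 248 to 280 CPM in the controls and 254 to 287 CPM with IL-1β. Of 8 endothelial markers 1 was higher and 3 were lower, with summed levels of 74.4 to 82.7 and 73.5 to 77.4 CPM. Neither of the 2 stellate markers tested was called (of 8 listed, summed 19.2 to 23.8 and 21.8 to 26.4 CPM), and of 5 cholangiocyte markers 2 were tested and 1, Spp1, was lower (summed 315 to 329 and 236 to 239 CPM). In the macrophage list Cd68 was read at 172 to 204 CPM and Cd5l at 16.02 to 20.5 CPM over the 6 libraries, while Timd4 did not exceed 0.0929 CPM. In the cholangiocyte list Sox9 was read at 128 to 158 CPM and Spp1 at 78.0 to 191 CPM, while Krt7 and Epcam did not exceed 0.192 CPM.

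In the controls the carriers spanned a wide range of read levels. By mean control CPM, Alb ranked 2 among all rows, Gc 11, Ttr 60, Rbp4 87, Serpina7 345, Afm 3231, Afp 6646 and Serpina6 10213. These are reads per transcript end and were not divided by transcript length, since the assay does not read along the transcript. Neighbours in this order did not overlap in the control libraries. With IL-1β the order changed at 1 place: Afp, at 42.8 to 53.9 CPM, came to overlap Afm, at 43.0 to 48.7 CPM.

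Alb, Afp and Afm are tandem members of the albumin family on chromosome 5, and Gc is a more distant member on the same chromosome. In the GRCm38 coordinates of the table, Alb (Entrez gene 11657) lies at chr5:90460889-90476603 on the plus strand, Afp (11576) at chr5:90490714-90508907 and Afm (280662) at chr5:90518949-90553544, both also on the plus strand. The gaps between them are 14110 bases from Alb to Afp and 10041 bases from Afp to Afm. Gc (14473) lies on the minus strand at chr5:89417511-89457898, 1003 kb before Alb.

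Alb, the main protein of plasma, was read at 15596, 16398 and 16556 CPM in the control libraries and at 13462, 14595 and 14211 CPM with IL-1β. All 3 treated libraries lay below all 3 controls, but the drop was small beside the level. The mean went from 16183 ± 515 to 14089 ± 576 CPM (SD, n = 3), and the log2 fold change was -0.20 (SE 0.053, adjusted p = 0.0113 by edgeR), so that Alb fell by 12.9%. Among all genes tested, 22.5% had a lower log2 fold change than Alb. The Alb call was the least firm of the 6: it was lost without IL-1β replicate 1 (adjusted p = 0.0894 by edgeR), without control replicate 2 (0.0744) and with limma or an unmoderated test on log2(CPM + 1) (0.0883 and 0.11).

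Afp, the fetal counterpart of albumin that hepatocytes largely silence after birth, moved the other way. It was read at 15.02, 15.2 and 19.4 CPM in the controls (160, 170 and 193 counts) and at 42.8, 53.9 and 46.4 CPM with IL-1β (401, 562 and 500 counts). The lowest treated library was above 2 times the highest control. The log2 fold change was 1.53 (SE 0.129, adjusted p = 1.6e-09 by edgeR), or 2.89-fold with a 95% interval of 2.41 to 3.48. Of all genes tested, 1.08% had a higher log2 fold change.

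Afm encodes afamin, a carrier of vitamin E and of lipid-modified Wnt proteins. Its reads were 48.7, 57.9 and 51.8 CPM in the controls and 43.0, 47.0 and 48.7 CPM with IL-1β. The highest treated library reached 48.66 CPM and the lowest control 48.71 CPM, so the groups all but touched. The log2 fold change of -0.19 (SE 0.099, adjusted p = 0.251 by edgeR) was close to that of Alb, and its 95% interval of -0.40 to 0.01 included both no change and a fall greater than that of Alb. Without control replicate 2 it was -0.12, and over the fits that left out 1 library it ranged from -0.25 to -0.12, with no call in any.

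Gc, which carries vitamin D metabolites and binds free actin, was read at 4248, 4328 and 4636 CPM in the controls and at 2897, 3016 and 2948 CPM with IL-1β. The groups were far apart relative to their spread (4404 ± 205 against 2954 ± 60.0 CPM, SD, n = 3). The log2 fold change was -0.58 (SE 0.056, adjusted p = 2.3e-08 by edgeR), so that Gc fell by 32.9%.

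The start regions of Alb and Afp are shown because these neighbours, 14110 bases apart on the same strand, moved in opposite directions. Each window runs from 250 bases before to 50 bases after the annotated start (RefSeq, GRCm38.p6, plus strand, 5′ to 3′), Alb at chr5:90460620-90460919 and Afp at chr5:90490464-90490763. Capitals mark matches, on either strand, to the 6 motifs searched: the TATA box (TATAAA), the CCAAT box (CCAAT), a C/EBP motif (TTGCNNAA), an HNF4 motif (CAAAGTCCA), a FOXA motif (TGTTTAC) and a STAT motif (TTCNNNGAA).
Alb: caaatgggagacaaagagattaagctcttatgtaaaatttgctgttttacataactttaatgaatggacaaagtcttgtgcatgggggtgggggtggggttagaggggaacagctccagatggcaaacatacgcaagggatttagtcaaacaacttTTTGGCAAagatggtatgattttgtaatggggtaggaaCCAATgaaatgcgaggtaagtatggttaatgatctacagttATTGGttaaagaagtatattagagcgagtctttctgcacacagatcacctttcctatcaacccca
Afp: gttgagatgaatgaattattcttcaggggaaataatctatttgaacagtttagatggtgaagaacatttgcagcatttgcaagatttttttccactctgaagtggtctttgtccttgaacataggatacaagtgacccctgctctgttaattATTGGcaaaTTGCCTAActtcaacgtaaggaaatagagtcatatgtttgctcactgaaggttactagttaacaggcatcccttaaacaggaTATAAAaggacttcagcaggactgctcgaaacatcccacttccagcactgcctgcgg
Both windows held the CCAAT box and the C/EBP motif. The C/EBP match began at position -94 in Alb and at -89 in Afp, counted from the annotated RefSeq start as position 0. The Afp window also held the exact letters TATAAA, at -7, which the Alb window did not. Variants of the TATA box were not searched, so their absence from the Alb window is not shown. The Alb start used by RefSeq is 19 bases upstream of the start in the deposited table.

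Ttr and Rbp4 encode the 2 proteins of the plasma retinol complex: RBP4 binds retinol, and transthyretin holds RBP4 in the circulation and also carries thyroxine. Rbp4 (19662; chr19:38116620-38125321, minus strand) was read at 1093, 1069 and 1055 CPM in the controls and at 539.8, 558 and 563 CPM with IL-1β. The group SDs were 19.2 and 12.3 CPM, and each treated library was near 0.5 times the controls. The log2 fold change was -0.95 (SE 0.059, adjusted p = 4.1e-12 by edgeR), so that Rbp4 fell by 48.4%. Of all genes tested, 2.5% had a lower value.

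The Rbp4 start region is shown as that of the carrier that fell most (chr19:38125272-38125571, GRCm38.p6, minus strand, 5′ to 3′, same motifs in capitals).
Rbp4: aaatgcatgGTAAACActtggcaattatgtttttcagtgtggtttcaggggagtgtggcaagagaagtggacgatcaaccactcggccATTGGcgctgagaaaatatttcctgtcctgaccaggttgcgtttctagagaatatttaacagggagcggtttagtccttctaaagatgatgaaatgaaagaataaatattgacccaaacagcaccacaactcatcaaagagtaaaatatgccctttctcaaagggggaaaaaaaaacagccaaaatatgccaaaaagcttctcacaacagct
It held a CCAAT box match and the only FOXA match among the windows of 6 carriers, and no exact TATAAA.

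Ttr (22139; chr18:20665250-20674326, plus strand) was read at 1402, 1339.5 and 1441 CPM in the controls and at 1028, 1135 and 1119 CPM with IL-1β. The groups did not overlap, and Ttr fell by 21.5% (log2 fold change -0.35, SE 0.060, adjusted p = 1.4e-04 by edgeR). The partners of the complex thus fell by unequal amounts, with 95% intervals that did not overlap (-1.07 to -0.83 for Rbp4 and -0.47 to -0.23 for Ttr); the difference itself was not tested.

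Serpina7 and Serpina6 are members of the serpin family that bind hormones and do not inhibit proteases. Serpina7, thyroxine-binding globulin (331535; chrX:139079250-139085236, minus strand), was read at 319.8, 361 and 369.6 CPM in the controls and at 509.8, 539 and 512 CPM with IL-1β. Every treated library was above every control. The log2 fold change was 0.57 (SE 0.066, adjusted p = 4.8e-07 by edgeR), a rise of 48.7% with a 95% interval of 1.35- to 1.64-fold. The thyroxine carriers therefore split, with Serpina7 higher and Ttr and Alb lower.

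Serpina6, corticosteroid-binding globulin (12401; chr12:103646632-103657071, minus strand), had 23, 39 and 29 counts in the controls and 16, 37 and 20 counts with IL-1β. These correspond to 2.16, 3.49 and 2.92 CPM and to 1.71, 3.55 and 1.86 CPM, and the groups overlapped. The log2 fold change was -0.26 (SE 0.39, adjusted p = 0.763 by edgeR), and the 95% interval of -1.07 to 0.54 covers a change as large as that of Rbp4. A difference was not detectable at this depth.

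The Serpina7 start region is shown as that of the other carrier that rose (chrX:139085187-139085486, GRCm38.p6, minus strand, 5′ to 3′, same motifs in capitals).
Serpina7: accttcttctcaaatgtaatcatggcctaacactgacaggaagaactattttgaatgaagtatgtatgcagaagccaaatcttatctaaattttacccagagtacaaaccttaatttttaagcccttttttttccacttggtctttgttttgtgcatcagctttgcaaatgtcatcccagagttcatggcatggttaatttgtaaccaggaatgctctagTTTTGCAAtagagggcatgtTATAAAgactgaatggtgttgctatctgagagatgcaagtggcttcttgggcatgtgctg
It held TATAAA at -10 and a C/EBP match at -30. Across the 6 carriers whose windows were searched (Alb, Afp, Afm, Gc, Rbp4 and Serpina7), the CCAAT box was found in 5 and in 37.4% of all 32851 windows. Over the same windows TATAAA was found in 3 (13.6%), the C/EBP motif in 3 (10.8%) and the FOXA motif in 1 (3.65%). The HNF4 motif (0.475%) and the STAT motif (8.3%) were found in 0 of the 6. Variants of these motifs were not searched, so the absence of HNF4 or STAT sites from the 6 windows is not shown. The C/EBP motif was present in Alb, which fell, and in Afp and Serpina7, which rose. None of the 13 matches in the 6 windows overlapped another. The 6 windows held 33 to 40.67% G and C, against a median of 52.67% over all windows. The shares over all windows were not matched for this. A match is a description of the letters in the window and no evidence of binding.

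**Figure D2:**
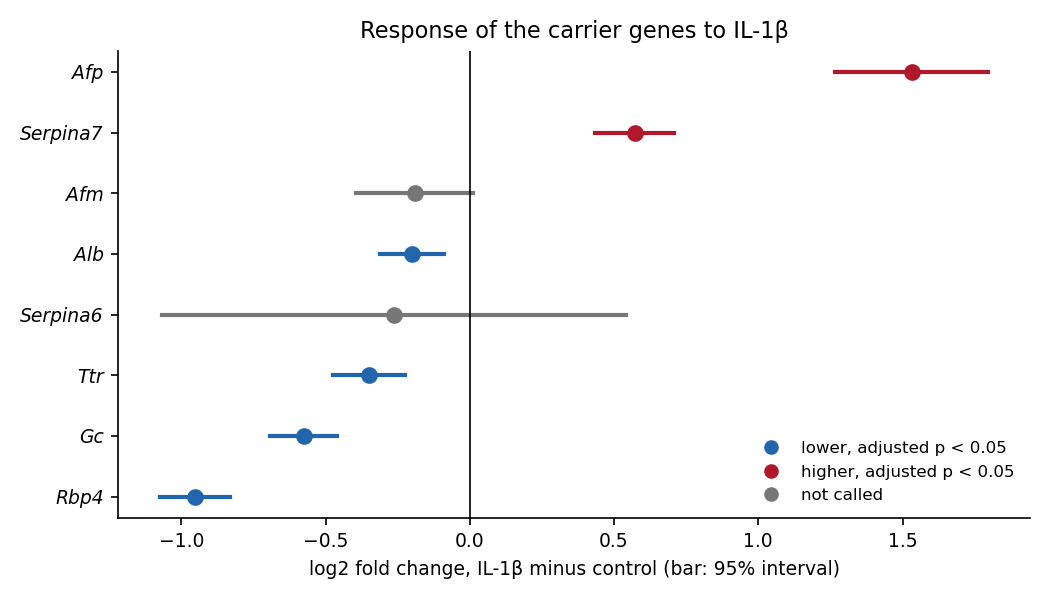
Log2 fold change (IL-1β minus control) of the 8 carrier genes, as points with 95% intervals from edgeR, ordered by value and coloured by call at an adjusted p below 0.05. Afp (1.53) and Serpina7 (0.57) lie above 0, Rbp4 (-0.95), Gc (-0.58), Ttr (-0.35) and Alb (-0.20) below it, and the intervals of Afm and Serpina6 include 0.

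Because Alb took most of the carrier reads, the other genes were also set against Alb within each library, which needs no scaling between libraries. For every 100 Alb reads the controls held 27.2, 26.4 and 28 Gc reads, and the IL-1β libraries 21.5, 20.7 and 20.7. Rbp4 gave 7.01, 6.52 and 6.37 reads per 100 Alb reads in the controls and 4.01, 3.82 and 3.96 with IL-1β. Both genes thus stood lower against Alb in each treated library than in any control.

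Ttr stood closer to Alb, with 8.99, 8.17 and 8.71 reads per 100 Alb reads in the controls and 7.63, 7.78 and 7.87 with IL-1β. Serpina7 went from 2.05, 2.20 and 2.23 to 3.79, 3.69 and 3.61 reads per 100 Alb reads. Afp went from 0.0963, 0.0927 and 0.117 to 0.318, 0.3695 and 0.327, a mean log2 difference of 1.73. Afm kept nearly the same ratio, with a mean log2 difference of 0.0098 and overlapping groups, and Serpina6 overlapped as well. For the 5 genes that did not overlap, the exact two-sided permutation test gave p = 0.1, the smallest that 3 against 3 samples allow, so none of the 7 ratios could pass 0.05 (adjusted p = 0.14 over the 7 comparisons). Alb itself was lower with IL-1β (log2 fold change -0.20), so each ratio also holds the fall of Alb. Ratios to Alb were not computed for all genes, so the 5 have no background share beside them.

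**Figure D3:**
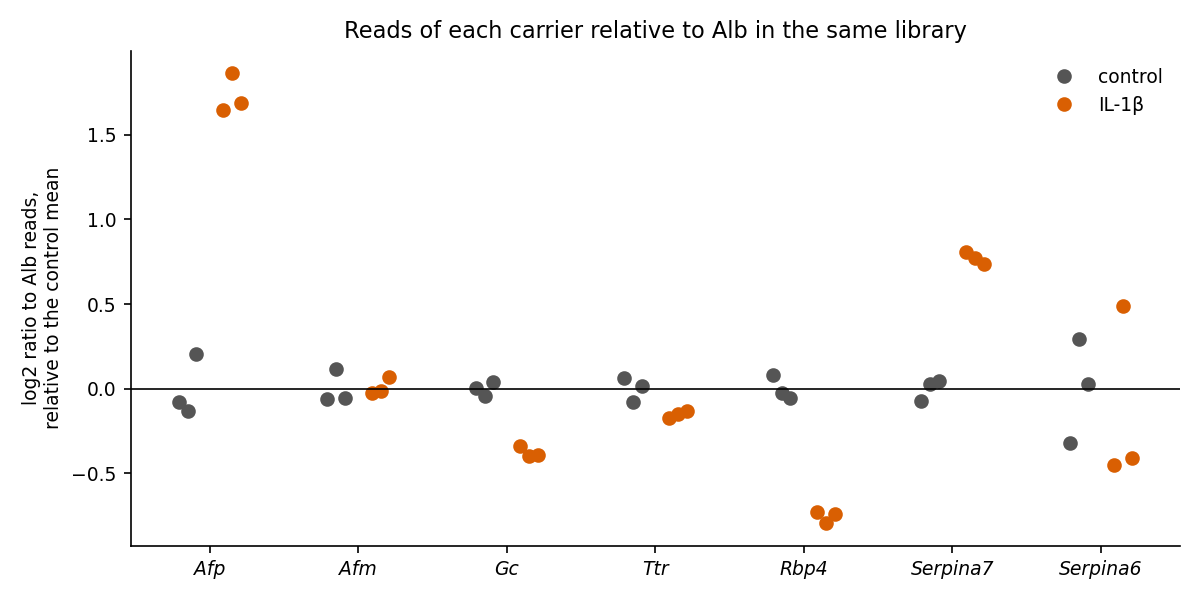
Log2 ratio of the reads of each carrier to Alb reads in the same library, with the mean of the 3 controls set to 0 (points: single libraries). Afp and Serpina7 lie above their controls (mean differences 1.73 and 0.77), Gc, Ttr and Rbp4 below (-0.38, -0.15 and -0.75), and Afm and Serpina6 overlap.

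All 8 genes together took 2.30, 2.37 and 2.51% of all counts in the controls and 1.82, 1.97 and 1.90% with IL-1β (mean 2.39 ± 0.106% against 1.90 ± 0.0756%, SD, n = 3; exact two-sided permutation p = 0.1, the smallest possible). Within these reads the share of Alb went from 68.9 ± 0.548% to 73.0 ± 0.259% (exact permutation p = 0.1). The groups did not overlap in either share. Alb thus made up more of a smaller carrier pool in each treated library.

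Of the genes within 1 Mb of Alb, 24 are in the table, including Alb, Afp and Afm themselves. Of these, 16 were tested, of which 7 were higher and 3 lower, beside 6.97% higher and 6.44% lower over all genes tested. The higher ones were Afp, Rassf6 and the CXC chemokine genes Cxcl1, Cxcl2, Cxcl3, Cxcl5 and Pf4, which attract or activate leukocytes. Among them Cxcl5 had a log2 fold change of 6.95 (SE 0.16) and Cxcl1 one of 1.36 (SE 0.10). Pf4 stood at 0 to 0.188 CPM in the controls and 2.40 to 3.34 CPM with IL-1β, so only the treated libraries brought it above the filter. The lower ones were Alb and the growth factor genes Areg (-0.68, SE 0.19) and Btc (-1.06, SE 0.14). In order of position, Alb was lower, the 7 higher genes from Afp to Cxcl2 followed, and Areg and Btc, farther along, were lower. Among the higher genes lay the uncalled Afm and 5830473C10Rik and the untested Ppbp and Cxcl15.

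**Figure D4:**
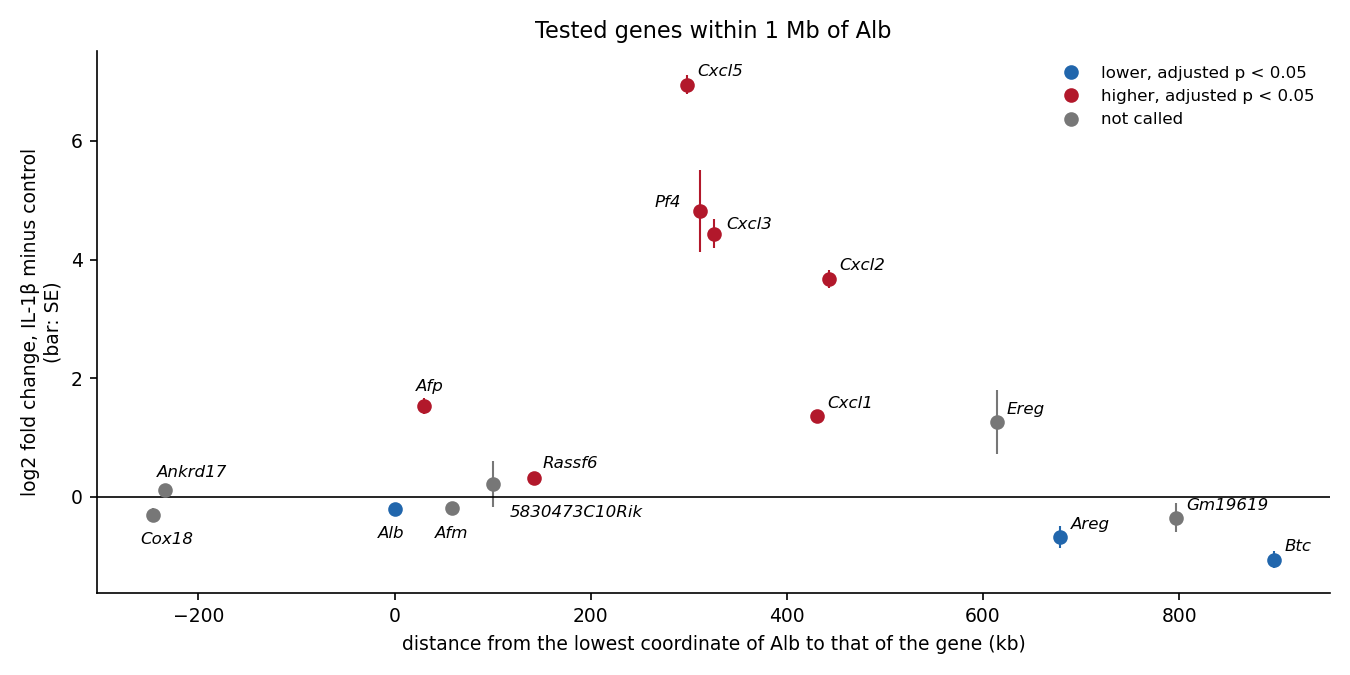
Log2 fold change (IL-1β minus control, bars SE from edgeR) of the 16 tested genes within 1 Mb of Alb, against the distance in kb from the start of Alb to the lowest coordinate of each gene. Afp stands at 1.53 between Alb (-0.20) and Afm (-0.19), and the chemokine genes lie farther along with values up to 6.95.

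Serpina6 lies in the Serpina cluster of chromosome 12, of which 24 genes are in the table and 14 were tested. Serpina10, Serpina1a, Serpina1b, Serpina1c and Serpina3k were lower, with log2 fold changes from -0.83 for Serpina10 (protein Z-dependent protease inhibitor) to -0.27 for Serpina1a. The higher ones were Serpina12, which encodes vaspin (0.44, SE 0.13), and Serpina3f (3.74, SE 0.53). Serpina3f stood at 0 to 0.657 CPM in the controls and 4.49 to 6.43 CPM with IL-1β. Only the treated libraries brought it above the filter, so its fold change rests on controls near 0. Over all genes tested, 6.44% were lower and 6.97% higher. Near-identical paralogs such as the Serpina1 genes may share reads. No 75-nt stretch in the last 500 nt of any of the 8 carrier transcripts was found in a transcript of another gene, and only Afm overlapped an exon of another annotated gene, Gm42109, on the other strand.

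Other plasma carriers were also split. Of 24 listed, 21 were tested, of which 7 were higher and 9 lower (median log2 fold change -0.19). Beside this list and those below, the shares over all genes tested were 6.97% higher and 6.44% lower. Lcn2, which binds bacterial siderophores, rose by 2.01 on the log2 scale (SE 0.07). Igfbp1, an IGF-binding protein, fell by 2.07 (SE 0.09), and Ahsg, which encodes the mineral-binding fetuin-A, fell by 1.39 (SE 0.06). Sepp1, the selenium carrier selenoprotein P, was read at 1479.6 to 1654 CPM in the controls and at 611 to 645 CPM with IL-1β, a log2 fold change of -1.32 (SE 0.06).

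Among 20 retinoid genes, 13 were tested, of which 2 were higher and 4 lower (median -0.41). Aldh1a1, which makes retinoic acid from retinal, was read at 105 to 126 CPM in the controls and at 21.4 to 24.98 CPM with IL-1β (log2 fold change -2.34, SE 0.10). Bco1, which cleaves beta-carotene to retinal, fell by 1.75 (SE 0.18). Cyp26a1, which breaks down retinoic acid, was lower from a level of 3.52 to 5.82 CPM (log2 fold change -2.02, SE 0.39). Rdh10, which oxidizes retinol to retinal, rose by 0.94 (SE 0.10). Stra6l, an RBP4 receptor of the liver that was picked after its values were seen, stood at 124 to 140 CPM in the controls and 131 to 133 CPM with IL-1β.

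For thyroid hormone handling, 14 of 17 genes were tested, of which 1 was higher and 2 lower (median 0.027). Dio3, which inactivates thyroid hormone, was lower from a level of 1.71 to 2.53 CPM (-1.88, SE 0.54), and the organic anion transporter Slco1a1 was lower by -0.48 (SE 0.15). Dio1, which activates thyroxine, stood at 1.52 to 1.78 CPM and 1.25 to 2.60 CPM (log2 fold change 0.35, SE 0.43, adjusted p = 0.706 by edgeR).

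For glucocorticoid handling, 11 of 13 genes were tested, of which 1 was higher and 1 lower (median 0.013). H6pd, which supplies NADPH to HSD11B1 in the endoplasmic reticulum, rose by 0.45 (SE 0.07), and Tat, a glucocorticoid-induced enzyme, fell by 1.71 (SE 0.44) from 2.50 to 4.04 CPM. The glucocorticoid receptor gene Nr3c1 had a log2 fold change of -0.15 (SE 0.10, adjusted p = 0.42 by edgeR). Hsd11b1, which regenerates active glucocorticoid, had -0.27 (SE 0.09, adjusted p = 0.0528).

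For vitamin D, 3 of 8 genes were tested and 0 were called (the other 5, among them the receptor gene Vdr, were too low to be tested). Cyp2r1, the main 25-hydroxylase, stood at 6.76 to 7.75 CPM in the controls and 4.32 to 5.29 CPM with IL-1β, a log2 fold change of -0.54 (SE 0.24, adjusted p = 0.171 by edgeR). Cyp27a1 had -0.24 (SE 0.08, adjusted p = 0.0526). Of Gc and these 3, Gc alone was called, but its mean control level was 4404 CPM against 7.19 CPM for Cyp2r1. The groups of Cyp2r1 and of Cyp27a1 did not overlap.

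All 7 genes of vitamin E handling were tested, of which 1 was higher and 4 lower (median -0.40). Ttpa, the tocopherol transfer protein that loads vitamin E for export, was read at 45.3 to 50.1 CPM in the controls and 20.2 to 24.3 CPM with IL-1β (log2 fold change -1.13, SE 0.11). Abcb4, a canalicular phospholipid transporter, fell by 1.13 (SE 0.09), and Sec14l2, a tocopherol-binding protein, had a log2 fold change of -0.40 (SE 0.10). Abca1, which exports lipids to apolipoproteins, rose by 1.01 (SE 0.09).

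Of 7 genes of albumin recycling and uptake, 4 were tested, 1 was higher and 1 lower (median -0.12). Fcgrt, the heavy chain of the receptor that rescues albumin from degradation, was read at 20.3 to 24.8 CPM in the controls and at 10.999 to 18.7 CPM with IL-1β (log2 fold change -0.66, SE 0.17, adjusted p = 0.0069 by edgeR). B2m, the light chain it shares with MHC class I, had 0.03 (SE 0.06). Dab2, an endocytic adaptor, rose by 0.88 (SE 0.23).

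Among 21 transcription factors known for the promoters of the albumin family, 4 were higher and 3 lower (median -0.099). Hnf4a, a nuclear receptor of hepatocyte identity, went from 84.6, 91.1 and 87.1 CPM to 41.6, 43.8 and 42.5 CPM (log2 fold change -1.04, SE 0.09). Foxa3 fell by 0.99 (SE 0.10). Cebpd rose by 2.27 (SE 0.12), Nfib by 0.49 (SE 0.07) and Cebpa by 0.34 (SE 0.09). Zhx2 (0.21, SE 0.17) and Zbtb20 (-0.12, SE 0.08), known as repressors of Afp after birth, were not called.

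**Figure D5:**
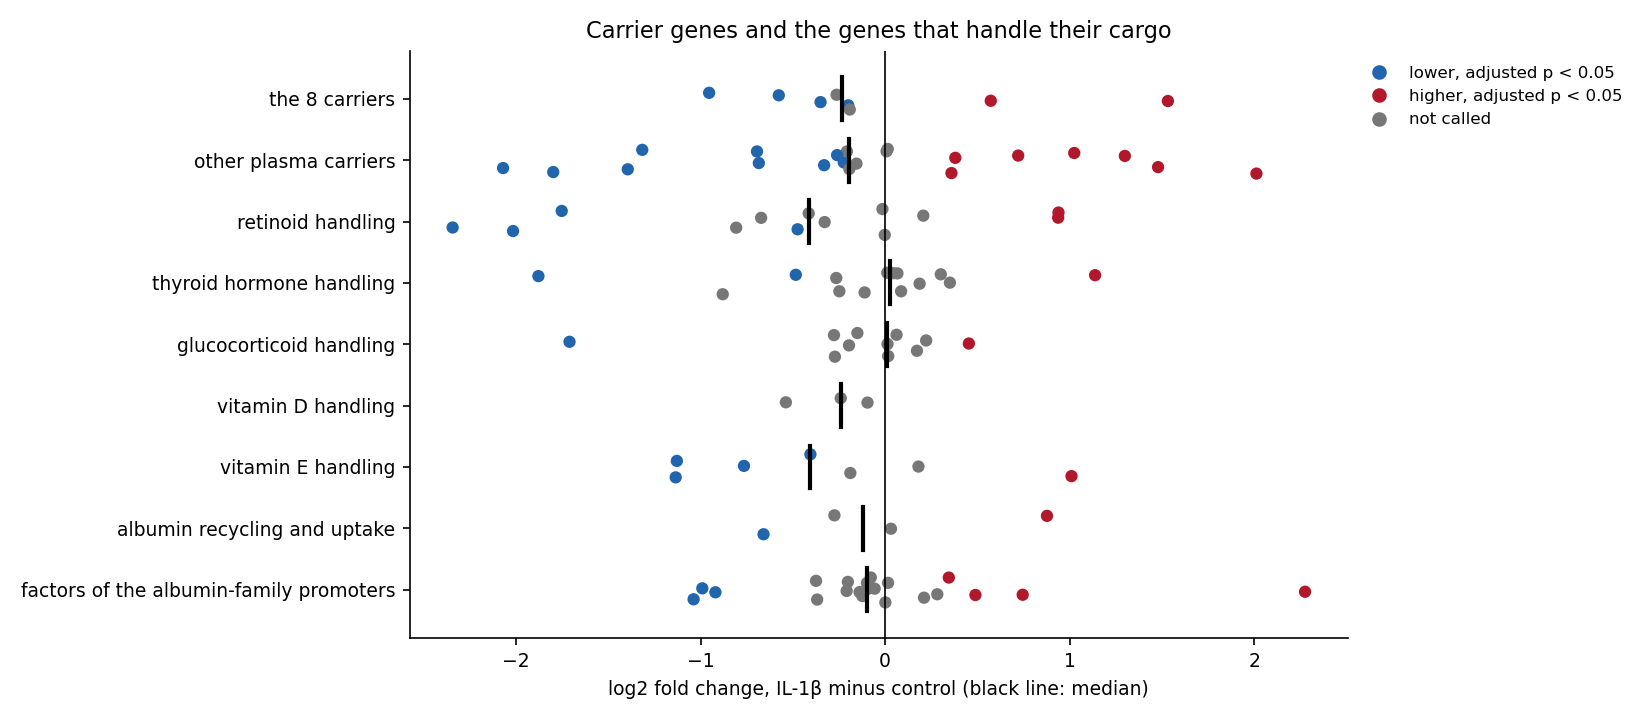
Log2 fold change (IL-1β minus control) of every tested gene in the 8 carriers and in 8 lists of related genes, coloured by call, with the median of each list as a black line; vertical positions within a list are spread for legibility. Medians range from -0.41 for retinoid handling to 0.027 for thyroid hormone handling, and most lists hold calls in both directions.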

How the data were processed

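Primary mouse hepatocytes, 3 control and 3 IL-1β libraries, were sequenced with QuantSeq 3′ mRNA-Seq as single-end reads of 75 nt, and groups were taken from the sample labels. Per the labels, the authors aligned reads with Bowtie2 and normalized with edgeR (TMM, CPM); the build is mm10 (GRCm38), and the counting tool is not given in the sources used here. The deposited raw counts per gene were used; the authors' fold changes, p-values and normalized columns were not. Counts were fitted in R 4.3.3 with edgeR 4.0.16 (filterByExpr, TMM, quasi-likelihood test), and p-values were adjusted by Benjamini-Hochberg across 11657 genes; the fit was first tested on simulated data. SEs came from the F statistics. Totals of 9538741 to 11105408 counts limit genes near the floor of 3 counts (0.268 to 0.320 CPM); intervals cover these libraries only. Exact permutation tests were two-sided. The members, lists and motifs were chosen with earlier results of these data known. Named genes were the 8 carriers, up to 4 genes per list with the smallest adjusted p, and genes with a defined role, some of which are not reported here; Trf and Sepp1 were matched through RefSeq synonyms. Alternatives were DESeq2 1.42.0, limma 3.58.1, other scalings and filters, a replicate block and leaving out each library. Promoter sequences came from RefSeq (GRCm38.p6), and the windows of 6 carriers were searched. Serpina6 had no window there, and Ttr was left out of the search and is not reported here.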

Additional observations from a re-analysis of the deposited data

How the results depend on the processing

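No carrier changed direction under any of the 16 alternatives, and Afp, Gc, Rbp4 and Serpina7 kept their calls in all of them, while Afm and Serpina6 stayed uncalled in all. Alb lost its call with limma on log2(CPM + 1) (log2 fold change -0.20, adjusted p = 0.0883) and with an unmoderated test on the same values (-0.20, adjusted p = 0.11), and Ttr with the unmoderated test only (-0.35, adjusted p = 0.0575). The unmoderated test thus called 2 carriers lower in place of 4, and over all genes 547 in place of 1563. Leaving out 1 library gave Alb -0.23 to -0.16 (adjusted p up to 0.0894), and the call was lost without control replicate 2 (-0.19) and without IL-1β replicate 1 (-0.16). Serpina6 moved from -0.67 to -0.075 over the same fits, and the number of carriers lower was 3 to 4. Upper-quartile scaling and total counts alone shifted the median of all genes to -0.030 and -0.055 and the share of higher calls from 52.0% to 45.3% and 39.7%; no carrier's call changed. Without Rn45s in the total, the difference in the share of counts was -0.60 in place of -0.50 percentage points. Same-numbered samples were little correlated (0.075, 0.0275 and -0.0050), and differently numbered ones gave -0.112 to 0.0995. The labels do not say whether same-numbered cultures share an animal, so whether the samples are paired is not settled. A replicate block called 4 carriers lower and 2 higher, as without it. Over all genes it called 1671 in place of 1563, and the adjusted p of Alb by edgeR was 5.1e-04 in place of 0.0113.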
